A study of Mus musculus with 4 samples.

Results

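Zbp1, Ripk1, Ripk3, Mlkl, Casp8, Fadd and Cflar encode the core of the necroptosis pathway and its apoptotic brake. These 7 genes were chosen by name for their role, with earlier results of these data known. Every array probe whose RefSeq accession maps to them was taken. They were carried by 10 probes among the 55681 on the array, and all 7 genes entered the comparison of 24864 genes. The cells were intestinal stem cells of mice, sorted by flow cytometry for high Lgr5, the receptor that marks cycling stem cells at the crypt base. The control animals carried the Lgr5-EGFP-Ires-CreERT2 knock-in allele, a reporter of Lgr5 expression, and the knockout animals were Ifnar1-/-:Lgr5-EGFP-Ires-CreERT2, lacking a chain of the type I interferon receptor. Mice of both groups were given poly(I:C), which mimics viral double-stranded RNA and elicits interferon, by intraperitoneal injection at 2 mg/kg daily over 1 week. Untreated animals are not analysed here, so the comparison is of genotypes under treatment. The labels name no cell type to which the Ifnar1 deletion is restricted, and age, sex and the number of animals behind a sample are not given in the sources used here.

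Necroptosis is a lytic form of cell death. ZBP1 binds Z-form nucleic acids and, through a short interaction motif that it shares with RIPK1 and RIPK3, brings RIPK3 together with its substrate MLKL, which then permeabilises the plasma membrane. Caspase-8, held on the adaptor FADD and paired with the CFLAR protein (c-FLIP), cleaves the RIP kinases and keeps the pathway in check. In the intestine this balance is known for its consequences: mice whose epithelium lacks caspase-8 or FADD lose Paneth cells and develop inflammation that depends on RIPK3 or MLKL. Zbp1 is a classical interferon-stimulated gene.

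There were 2 samples in each group and 4 arrays of 1 colour. A slide carried a control and a knockout array of the same replicate number, so that number, slide and scan coincide. The share of spots well above background ran from 63.3% to 67.7%, with 0 saturated spots. Levels are given as log2 signal minus the log2 75th percentile of that array, and differences as knockout minus control on that scale. The number of arrays limits the precision, and since the labels do not state that replicates are different animals, p-values reflect only how these samples scatter, possibly for technical reasons. An exact permutation test of 2 against 2 arrays cannot give a two-sided p below 0.333. Ifnar1 was 3.31-fold lower in the samples labelled knockout, by -1.55 (slide 1) and -1.91 (slide 2) on the log2 scale. It passed narrowly with the slide as a block (limma, adjusted p = 0.0497) and did not pass without a slide term (limma, adjusted p = 0.478). Whether its probe lies inside the deleted sequence is not known here. Of the 10 genes listed as Lgr5 stem cell markers, the 9 with a probe (Lgr5 among them, Olfm4 not) were well above background on all 4 arrays, as were the 7 epithelial markers.

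None of the 7 genes passed in either fit. With limma, adjusted by Benjamini-Hochberg over all genes at 0.05, the fit without a slide term called 0 members lower and 0 higher, where the share of all genes called was 0% in each direction, and all 7 members had an adjusted p = 1.00. With the slide, which is also the replicate number, as a block, limma again called 0 members, beside 0.330% of all genes called lower and 0.0322% called higher. At an unadjusted p under 0.05, 0 members stood in the fit without a slide term (1.72% of all genes lower, 1.04% higher), and Mlkl and Casp8 stood lower with the slide as a block (4.93% of all genes lower, 7.31% higher). At the brightest probe of each gene, those 2 had the lowest differences of the group: Mlkl was 1.70-fold lower on average and Casp8 1.29-fold lower. With the probes of a gene averaged, Zbp1 (-0.38) stood below Casp8 (-0.36). The median difference over the 7 genes was -0.08, beside 0.02 over all genes tested. In bulk RNA of sorted cells, fewer cells of a type and less RNA per cell cannot be told apart.

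**Figure D1:**
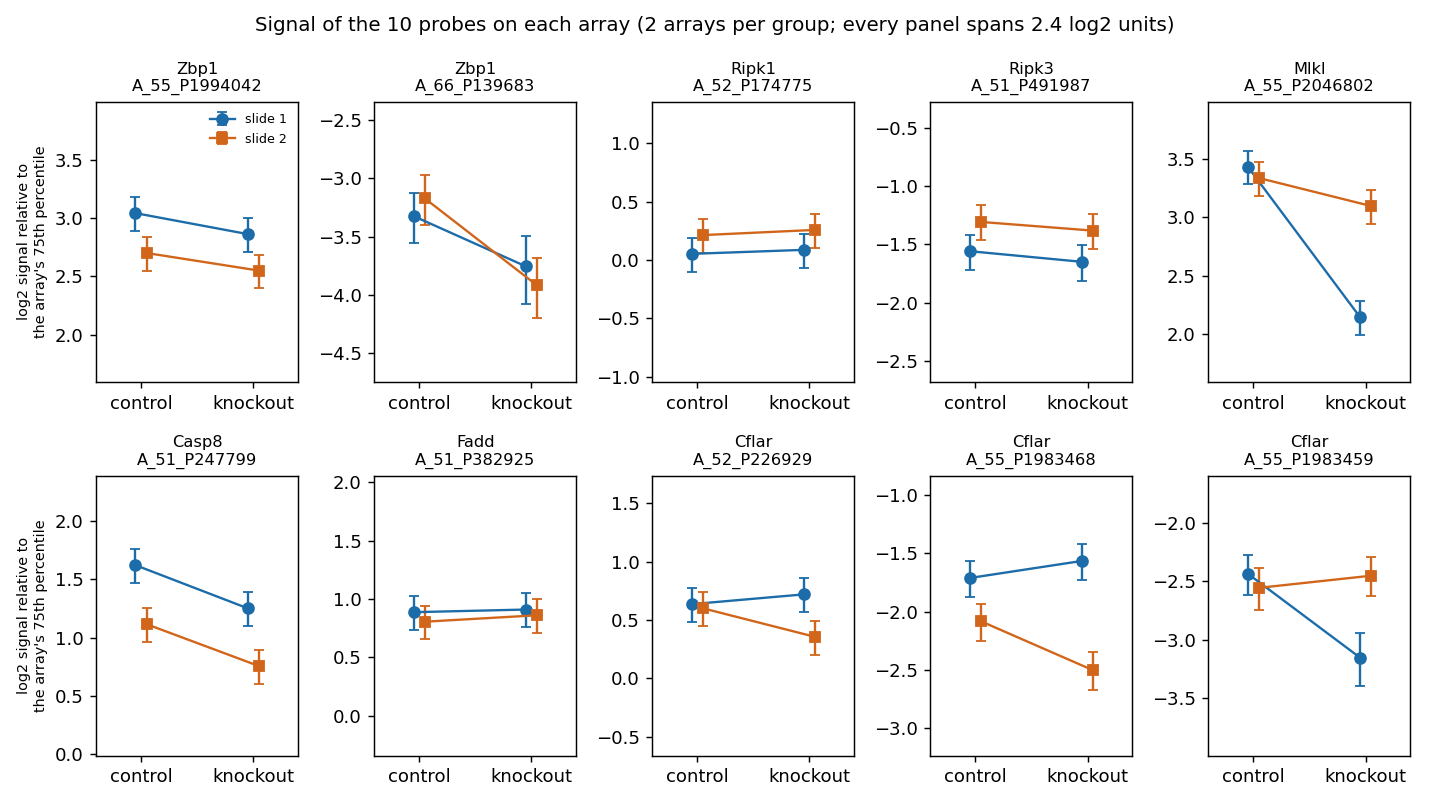
Each panel shows a probe, with the log2 level (scaled to the 75th percentile per array) on the vertical axis, control and knockout on the horizontal axis, and a line joining the arrays of a slide; bars are the error the scanner software gives for each spot, and all panels span the same log2 range. The Mlkl line runs from 3.43 to 2.15 on slide 1 and from 3.34 to 3.10 on slide 2, the 2 lines of Casp8 run parallel, and the lines of Ripk1, Ripk3 and Fadd are nearly flat.

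Promoter windows of the members were searched for elements through which interferon is known to act, and 2 of the 7 windows held a match. RefSeq windows of 300 bases (250 before the start and 50 after it, GRCm38.p6) were given for 6 of the 7 members, in 7 windows, and that of Zbp1 is not among them. They were searched on both strands for GAAANNGAAA, the core of the interferon-stimulated response element, and TTCNNNGAA, the palindromic STAT element. The first was found in 3.44% and the second in 8.30% of the 32851 windows of the table. The GAAANNGAAA core was found in the second Ripk1 window, at -5 to 5 from the start, where it overlaps the second of 2 STAT elements, and on the reverse strand in the Cflar window at 7 to 16. The windows of Mlkl, Casp8, Ripk3 and Fadd and the first Ripk1 window held neither. The second Ripk1 window and that of Cflar are shown for their matches, in capitals, and that of Mlkl, the member with the lowest difference, for contrast. A match describes letters and is not a binding site, and the absence of a match in this window says nothing of elements elsewhere.

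Ripk1 (second window, chr13:34002624-34002923, plus strand): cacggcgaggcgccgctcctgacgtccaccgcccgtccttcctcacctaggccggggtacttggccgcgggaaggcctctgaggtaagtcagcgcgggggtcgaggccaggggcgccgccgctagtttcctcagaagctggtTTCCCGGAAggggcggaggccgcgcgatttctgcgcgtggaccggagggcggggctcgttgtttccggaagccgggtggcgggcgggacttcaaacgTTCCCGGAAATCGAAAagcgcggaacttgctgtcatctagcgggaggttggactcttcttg

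Cflar (chr1:58711241-58711540, plus strand): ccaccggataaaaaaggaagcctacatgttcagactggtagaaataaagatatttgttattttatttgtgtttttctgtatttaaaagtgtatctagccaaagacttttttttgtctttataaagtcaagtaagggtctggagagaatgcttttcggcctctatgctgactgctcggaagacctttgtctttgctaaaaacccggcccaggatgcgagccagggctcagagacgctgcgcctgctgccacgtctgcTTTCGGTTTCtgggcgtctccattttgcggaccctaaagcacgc

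Mlkl (chr8:111338156-111338455, minus strand): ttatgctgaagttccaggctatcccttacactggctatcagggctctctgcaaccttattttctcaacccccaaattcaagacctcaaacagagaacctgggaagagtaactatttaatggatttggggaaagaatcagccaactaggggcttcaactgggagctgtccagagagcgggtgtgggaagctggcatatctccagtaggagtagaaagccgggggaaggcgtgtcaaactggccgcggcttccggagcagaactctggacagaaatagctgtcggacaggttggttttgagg

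Zbp1, the sensor, was measured by 2 probes that differ in brightness. The brighter, A_55_P1994042 (NM_001139519), read 3.04 in control 1, 2.70 in control 2, 2.86 in knockout 1 and 2.55 in knockout 2. The knockout array was the lower on each slide, while the slides differed more than the genotypes did, and the groups overlapped. With an array left out the slides are unbalanced. The shift between slides (-0.34 in the controls and -0.31 in the knockouts) then enters the difference. The direction did not hold there: the difference was 0.00576 without control 1 and -0.00875 without knockout 2. It was -0.34 without control 2 and -0.32 without knockout 1. The difference was -0.17 (SE 0.22; 95% interval -0.72 to 0.39), with -0.18 on slide 1 and -0.15 on slide 2. Each of these is smaller than 0.204, the error of a difference between 2 spots that follows from the error the scanner software gives for each. With the slide as a block the interval was -0.39 to 0.06 (limma, adjusted p = 0.499). The lower bound without a slide term corresponds to a knockout signal at 0.606 of the control.

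The other Zbp1 probe, A_66_P139683 (NM_021394), was dim. It read -3.32 and -3.17 in controls 1 and 2, and -3.75 and -3.92 in knockouts 1 and 2. Its groups did not overlap, and its differences of -0.43 on slide 1 and -0.75 on slide 2 exceeded the spot errors of 0.359 and 0.335. It was flagged well above background on all 4 arrays, yet its difference of -0.59 became -0.18 under normexp background correction, and it did not pass when each probe was tested on its own (limma with slide block, adjusted p = 0.560). Averaging both probes gave a difference of -0.38 for the gene. The sources used here do not say which part of the transcript each probe reads.

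Ripk1, the kinase at the branch between survival and death signalling, read 0.05 and 0.21 in controls 1 and 2, and 0.09 and 0.26 in knockouts 1 and 2. The 2 arrays of a slide lay closer together than the 2 arrays of a genotype. The difference was 0.04 (95% interval -0.51 to 0.58; -0.29 to 0.37 with the slide as a block, limma adjusted p = 0.926). Ripk3, the kinase that phosphorylates MLKL, read -1.56 and -1.31 in the controls and -1.65 and -1.38 in the knockouts. Its difference was -0.08 (95% interval -0.78 to 0.61; -0.54 to 0.38 with the slide as a block, limma adjusted p = 0.884). For both kinases the differences on each slide, from -0.09 to 0.04, lay within the spot error. Their direction is not settled. With an array left out, where the slides are unbalanced and the shift between them enters the difference, the sign turned. Ripk1 was at -0.04 without control 1 and -0.05 without knockout 2, and Ripk3 at 0.04 without control 2 and 0.05 without knockout 1. In addition, the difference of Ripk1 was -0.000287 on the authors' own scaling and that of Ripk3 was 0.00142 with normexp background correction.

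Mlkl, the pseudokinase that carries out necroptosis, was the member with the lowest difference. It read 3.43 in control 1 and 3.34 in control 2, against 2.15 in knockout 1 and 3.10 in knockout 2, for means of 3.39 ± 0.07 and 2.62 ± 0.67 (SD, n = 2 each). Both knockout arrays lay below both control arrays, which at the brightest probe of each gene held for 1 of the 7 members and for 11.5% of all genes. The controls differed by less than their spot error and the knockouts by 0.95, so the size of the difference rests on knockout 1. On slide 1 Mlkl was 2.44-fold lower in the knockout (difference -1.29), and on slide 2 it was 1.18-fold lower (-0.24), just beyond the spot error of 0.204. The average difference was -0.76 (SE 0.33; 95% interval -1.60 to 0.07; limma, adjusted p = 1.00), and with the slide as a block the interval was -1.38 to -0.15 (adjusted p = 0.345). Without knockout 1 the difference was -0.29, and without knockout 2 it was -1.24 (limma, adjusted p = 0.269). Leaving the filter on dim probes out of the slide-block fit brought Mlkl under the threshold (limma, adjusted p = 0.0147). Its own residual SD was 0.524 in both fits, while the SD used for its test fell from 0.243 to 0.160 as more weight went to the spread of other genes. The fit without the filter called 426 genes lower and 340 higher of 36714 tested. With the filter, the slide-block fit called 82 and 8 of 24864.

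Casp8, the protease that restrains the RIP kinases, differed by nearly the same amount on each slide. It read 1.62 in control 1 and 1.25 in knockout 1, and 1.12 in control 2 and 0.76 in knockout 2. Slide 1 was the brighter for both genotypes, so knockout 1 lay above control 2 and the groups overlapped. The differences were -0.37 on slide 1 and -0.36 on slide 2, against a spot error of 0.204 on each. The fit without a slide term gave -0.36 (95% interval -1.07 to 0.34; limma, adjusted p = 1.00), and the slide block narrowed the interval to -0.64 to -0.09 (adjusted p = 0.333). At the brightest probe of each gene, Casp8 and Mlkl were the 2 members whose differences exceeded the spot error on both slides, as the dim Zbp1 probe did too. The share of all genes beyond their spot error was not computed, so this count has no background beside it. For the members at their brightest probes that error was nearly constant (0.204 to 0.213), and it is not a spread between samples. With an array left out the slides are unbalanced. The shift between slides (-0.51 in the controls and -0.49 in the knockouts) then enters the difference. The size for Casp8 was -0.11 without control 1 and -0.12 without knockout 2. It was -0.61 without knockout 1 and -0.62 without control 2.

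Fadd, the adaptor that recruits caspase-8, varied least. It read 0.89 and 0.81 in the controls and 0.91 and 0.86 in the knockouts, a difference of 0.04 (95% interval -0.45 to 0.53; -0.25 to 0.33 with the slide as a block, limma adjusted p = 0.916), which was -0.000721 on the authors' own scaling and -0.00189 without control 2. Cflar, whose protein pairs with caspase-8, had 3 probes. The brightest, A_52_P226929 (NM_207653), read 0.64 and 0.60 in controls 1 and 2, and 0.72 and 0.36 in knockouts 1 and 2. The genotypes differed by 0.08 on slide 1 and -0.24 on slide 2, so the sign turned between slides (difference -0.08; 95% interval -0.65 to 0.48; limma with slide block, adjusted p = 0.846). Without knockout 2 it was 0.10, and without knockout 1 it was -0.26. The other Cflar probes changed sign between slides too: A_55_P1983468 (NM_009805) differed by 0.15 and -0.42, and A_55_P1983459 (NM_207653) by -0.72 and 0.10. No direction common to the slides was seen at any of the 3 Cflar probes.

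**Figure D2:**
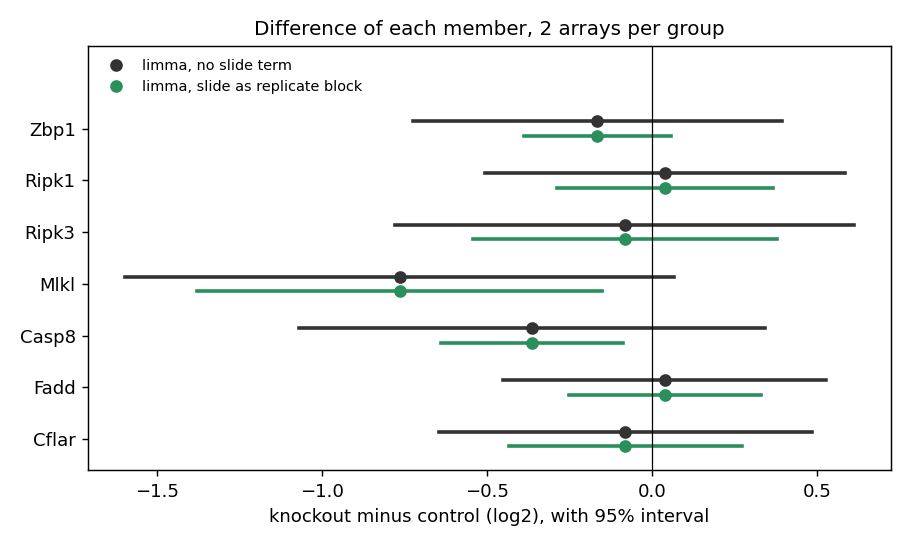
Points are the knockout minus control differences of each member in log2 units, with 2 arrays per group, and bars are 95% intervals from limma without a slide term (black) and with the slide as a replicate block (green). All 7 black intervals include 0, while the green intervals of Mlkl (-1.38 to -0.15) and Casp8 (-0.64 to -0.09) do not, before any adjustment for the number of genes tested.

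Across the group, at the brightest probe, 4 of the 7 members (Zbp1, Ripk3, Mlkl and Casp8) had negative differences on both slides, beside 27.3% of all genes, and 2 (Ripk1 and Fadd) were higher on both, beside 33.9% of all genes. Both knockout arrays lay above both control arrays for 0 members, beside 14.5% of all genes. For Mlkl the controls lay close together and the knockouts apart. For Zbp1, Ripk1, Ripk3 and Casp8 it was the slides that lay apart: from slide 1 to slide 2 the controls shifted by -0.34, 0.16, 0.25 and -0.51, and the knockouts by -0.31, 0.17, 0.27 and -0.49. Ripk1 and Cflar, with a GAAANNGAAA core in a window shown above, had differences of 0.04 and -0.08, and no relation between the motif and the differences was tested.

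**Figure D3:**
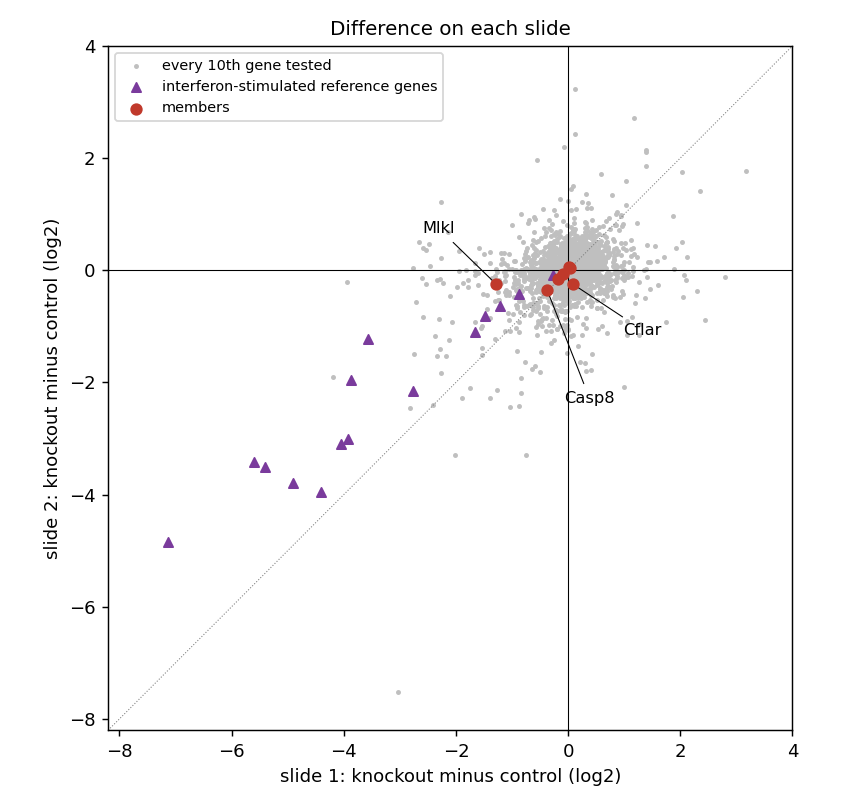
Each point is a gene, placed by its knockout minus control difference (log2) on slide 1 and on slide 2; members are red, interferon-stimulated reference genes purple, and every 10th gene tested grey, with a dotted line of equality. Mlkl stands at -1.29 on slide 1 and -0.24 on slide 2, and the other members lie near the origin, away from most of the interferon-stimulated genes.

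A reference list of 17 interferon-stimulated genes gives the size of the genotype difference under treatment for these genes in the same arrays. The list was chosen with earlier results of these data known, so its values are no independent measure of that size. Without untreated animals, a response to poly(I:C) cannot be told apart from a difference present before it. Of the 15 tested, all were lower on both slides, with a median difference of -2.91 (-3.87 on slide 1 and -2.15 on slide 2). Of these, 7 fell with the slide as a block (Irf7, Oas1a, Bst2, Ifi44, Rtp4, Ifit1 and Rsad2), and 0 passed without it. Ifi44, Ifit1 and Usp18 were well above background on both control arrays and on neither knockout array, so they were tested through the controls alone. They count among the 15 and enter the median. The calls of Ifi44 and Ifit1 rest on knockout values that are not well above background. Rsad2, which encodes the antiviral enzyme viperin, was 11.9-fold lower, with an adjusted p = 0.0197 from limma with the slide block. The brighter Zbp1 probe, at 1.12-fold lower, was close to Irf1, a transcription factor with a difference of -0.18 and the highest of the list. Whether Zbp1 differs from these genes was not tested.

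The other genes of the pathway came from lists set by function, chosen with earlier results of these data known. Among 10 inputs to the pathway, 8 were tested and 0 passed in either fit. Their median difference was -0.15, and with an array left out it lay between -0.19 (control 2) and -0.29 (knockout 2), with -0.27 without control 1 and without knockout 1. Tnf, the ligand that engages RIPK1 through its receptor, had a difference of -1.52, made of -1.93 and -1.10 on the respective slides (adjusted p = 0.177 in the slide-block fit of limma). Adar, the editing enzyme that masks endogenous double-stranded RNA and so restrains ZBP1, differed by -1.18 (-1.63 and -0.73; adjusted p = 0.225). Tradd, the adaptor of the TNF receptor, differed by -0.35 and Tnfsf10, the ligand TRAIL, by -0.21. Fas and Tlr3 were not well above background on any of the 4 arrays.

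The 20 genes listed for the ubiquitin and kinase checkpoint on RIPK1, enzymes and their adaptors, were all well above background on every array. None passed in either fit, and the median difference was 0.000248, with -0.07 to 0.03 when an array was left out (lowest without knockout 2, highest without knockout 1). Rnf31, the catalytic subunit of the linear ubiquitin ligase, had the smallest p, with a difference of -0.78 that was similar on the slides (-0.93 and -0.62; limma with slide block, adjusted p = 0.129). Tnfaip3, the ubiquitin-editing enzyme A20, differed by -0.56, Birc2, the ligase cIAP1, by -0.38, and Spata2, which recruits the deubiquitinase CYLD, by 0.29. The partners of Rnf31 in the ligase did not share its value: Rbck1 differed by 0.11 and Sharpin by -0.11, both named after their values were seen.

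Downstream of caspase-8, the 10 apoptosis genes had a median difference of 0.11 with 0 passing in either fit. The median was 0.04 without control 1, 0.06 without knockout 1, 0.10 without knockout 2 and 0.20 without control 2. Bid, which carries the caspase-8 signal to mitochondria, differed by 0.35, Apaf1 by 0.22 and Casp9, the caspase that Apaf1 activates, by 0.21. Among 15 partners of MLKL and genes of membrane repair, 0 passed in either fit. Their median was 0.05, and ran from -0.02 without knockout 2 to 0.19 without knockout 1, with 0.03 without control 1 and 0.15 without control 2. Hsp90aa1, a chaperone that MLKL depends on, differed by -1.56 on slide 1 and -0.14 on slide 2, and Rab27a, a regulator of vesicle release, by -1.22 and -0.30; both were lower mainly on slide 1, as Mlkl was. Stub1, a ubiquitin ligase of RIPK3, had a difference of 0.31 (adjusted p = 0.294 in the slide-block fit of limma) and Chmp2a, an ESCRT-III subunit of membrane repair, by 0.22.

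**Figure D4:**
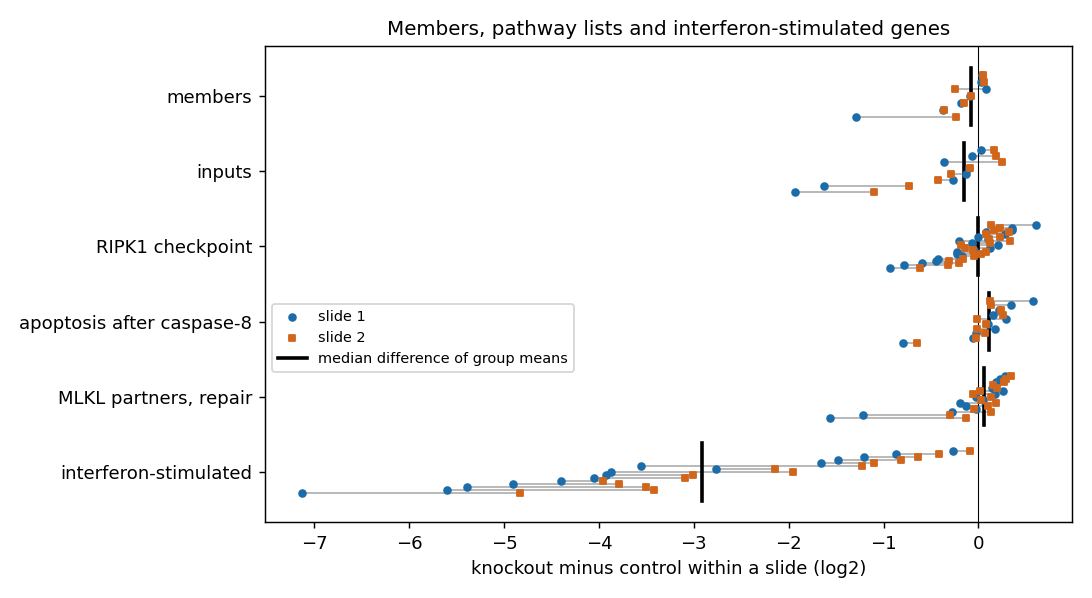
Each gene has a circle for slide 1 and a square for slide 2, joined by a grey line, at its knockout minus control difference (log2); black bars are the medians of the group differences. The members and the 4 pathway lists have medians from -0.15 to 0.11 over all 4 arrays, and the interferon-stimulated genes one of -2.91.

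Genes with the profile most like that of Zbp1 over the 4 arrays, by the root mean square distance between values centred on each gene's mean among 14797 named genes, were Foxp1, Armcx3, Mtpap, Ift140 and Tlr9, at distances of 0.0120 to 0.0182 log2 units. Those nearest to Mlkl were Teddm2, Lmx1a, Ogfrl1, Cd27 and Syt8, at 0.0384 to 0.0618. With 4 arrays such a ranking describes these values and no more.

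Markers of other cells moved with genotype in some cases. The 7 Paneth cell markers tested, of 10 listed, were lower on both slides and 6 of them fell with the slide as a block. Their summed linear level, relative to the 75th percentile, was 465 and 595 in the controls and 120 and 193 in the knockouts, so that the knockout held 0.259 of the control level on slide 1 and 0.324 on slide 2. The part of Paneth cell RNA in the values of Mlkl and Casp8 was not tested. Of 21 immune markers, 12 were well above background on all 4 arrays and 4 (Ms4a1, Itgax, Coro1a and Laptm5) on none. The summed level of the 17 tested was 247 and 368 in the controls and 242 and 359 in the knockouts, most of it from the Itgam probe at 8.02 in the control. Lyz2 alone of these fell (limma with slide block, adjusted p = 0.00830), and it shares sequence with the Paneth lysozyme Lyz1. Median differences were -0.61 for 6 enteroendocrine, -0.20 for 7 goblet and 0.49 for 7 enterocyte markers, and 0 of these passed in either fit. Of 8 stromal and vascular markers, 3 were well above background on all arrays, and their summed level was 0.411 to 0.635.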

How the data were processed

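Whole-transcriptome amplified RNA was labelled with Cy3, per the labels' protocols. The deposited scanner tables give spot intensity after background subtraction, with an error per spot and flags for background and outliers, made with Agilent Feature Extraction 12.0.3.1 per the file headers (the submitters' processing notes name 11.5.1.1). The deposited series table is that intensity times 1 constant per array, 5.60 to 6.68.

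Control and outlier spots (111 to 172 per array) were left out, spots of a probe averaged, and log2 of the processed signal taken minus each array's 75th percentile. A probe was kept where both arrays of a group flagged it well above background (35420 probes), and a gene was read at its brightest probe. Accessions without versions were matched to RefSeq (GRCm38.p6), which named 28331 of 55681 probes. The array design uses mm9, so probe and gene coordinates are not given, and those of the promoter windows are from the RefSeq table.

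Groups were compared with limma 3.58.1 in R 4.3.3 (moderated variances with an intensity trend, Benjamini-Hochberg over 24864 genes), checked on simulated data. The slide, which pairs equal replicate numbers per the file headers, was an alternative block: control 1 minus control 2 and knockout 1 minus knockout 2 correlated across genes at a Pearson r of 0.563 (genes are not independent replicates). Members and lists were chosen with earlier results of these data known. Named genes are the members, Ifnar1, up to 4 genes per pathway list by smallest p and any that passed, the 5 genes nearest to Zbp1 and to Mlkl, and cell type markers; a gene that this rule names is not reported here. Normexp (offset 50) took the median spot signal, the mean not being used here. Other alternatives covered scaling, filter, probe rule, outliers, variance model, threshold and each array left out.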

Additional observations from a re-analysis of the deposited data

How the results depend on the processing

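Mlkl and Casp8 were lower in the knockout under all 20 alternatives, from -1.24 to -0.29 and from -0.62 to -0.11. Many of these could not change the sign. Changing the block, variance model, threshold or filter left their differences as they were. So did the probe rules, as each of these genes has a single probe. Reversals were confined to members with differences near 0. They were Ripk1 (-0.000287) and Fadd (-0.000721) on the authors' own scaling, and Ripk3 (0.00142) with normexp. Others came with an array left out. There Zbp1 ran from -0.34 to 0.00576, Ripk1 from -0.0463 to 0.12 and Ripk3 from -0.22 to 0.0507. Fadd ran from -0.00189 to 0.0796 and Cflar from -0.26 to 0.10. Leaving out an array unbalances the slides, so the shift between slides enters those values. How much of each reversal it makes up was not tested. The fit without a slide term called 0 genes. The replicate block called 82 lower and 8 higher genes of 24864 tested, and 151 and 54 at an adjusted p under 0.10. Without the filter on dim probes it called 426 and 340 of 36714 tested, and 1 member, Mlkl, was called lower there. Without the intensity trend the replicate block called 0. Leaving out an array gave 9 to 88 lower and 0 to 3 higher genes, with 0 members (a lone array is assumed to vary like the other group). The authors' table with the 75th percentile subtracted equals the main values by construction. The blocks with another threshold or filter, the own scaling and the dim probes were chosen after seeing the data. Dim probes (Zbp1 A_66_P139683, Cflar A_55_P1983459) carry spot errors of 11.5% to 20.0% of the signal.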
